A study of Drosophila melanogaster with 16 samples.

Results

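Transcripts of 46 digestive enzyme genes were examined in the dissected body-wall muscle of tumour-bearing Drosophila larvae, out of 15682 genes in the count table. The genes were taken by symbol, with a rule that uses no measured value. These genes were chosen as a set with earlier results of these data known. They comprised 16 Jonah (Jon) serine proteases, 11 trypsins named with a Greek letter and Try, 2 alpha-amylases (Amy-p and Amy-d), 10 maltases of the Mal-A and Mal-B groups and 7 lysozymes (LysB, LysC, LysD, LysE, LysP, LysS and LysX). Jonah proteases and trypsins are secreted into the gut lumen by midgut enterocytes and cut dietary protein. Amylases break starch into maltose and short chains, and maltases split these into glucose. Lysozymes B to E act in the larval midgut on the walls of ingested bacteria, LysS is known from the gastric caeca, LysX from the midgut around metamorphosis and LysP from the adult salivary gland. In flies, amylase and maltase genes of the midgut are known to be repressed by dietary sugar, in a pathway in which the Activin-like ligand Dawdle acts upstream of the zinc finger factor Sugarbabe.

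All animals carried Ras/Src tumours, which are eye clones made with an eyeless-driven recombinase (MARCM) that express GFP and an oncogenic form of ras1 and are homozygous for a nonsense allele of csk, the inhibitor of Src (csk-/-). The tissue sequenced was therefore muscle of the tumour host and not the tumour, and there was no group without a tumour. Larvae were raised on a control diet (CD, 0.15 M sucrose) and dissected at day 8 after egg laying, or on a high-sugar diet (HSD, 1 M sucrose) and dissected at day 12 (Early), day 14 (Mid) or day 16 (Late), with 4 libraries from pooled tissue in each of the 4 conditions. The days are those of the labels, while the methods place the Early stage of muscle staining on an earlier day, so the age at Early is uncertain. No HSD group shares its day with CD, and diet and age cannot be told apart in any comparison of HSD with CD. The labels do not say whether libraries of a condition came from separate cultures, so the p-values measure the spread between these libraries.

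The libraries held 9666672 to 28698585 counts on genes, and values are given below as CPM, counts scaled to a common library size, in the order of replicates 1 to 4. The muscle label was checked against 15 sarcomere genes, which summed to between 7832 CPM (Late 3) and 183196 CPM (Early 1). A list of 7 fat body genes summed to between 5399 and 35399 CPM and was above the muscle list in Late 1 (21918 against 19841 CPM) and in Late 3 (35399 against 7832 CPM). The 46 digestive genes took between 0.0425% (Late 4) and 0.251% (Early 3) of the counts, with 0.249% in CD 2. A low-count filter passed 43 of them. The other 3 were gammaTry with 1 count in all libraries together, Mal-A7 with 27 and LysP with 130. In whole tissue, fewer cells of a type and less RNA per cell cannot be told apart. Several members form sets of related copies (LysB to LysE, gammaTry and deltaTry, Amy-p and Amy-d, Jon65Aiii and Jon65Aiv, and the Jon99C and Jon25B genes). Their sequence identity was not measured here. How the counting treated reads that match several copies is not given in the sources used here, so the split of counts within such sets is uncertain. LysC is annotated as a pseudogene, and its exons overlap LysD on the other strand. Exons of Jon44E, deltaTry, Mal-A1 and Mal-A8 also overlap a gene on the other strand (CG8586, CG13202, Cyp4e1 and mtt).

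**Figure D1:**
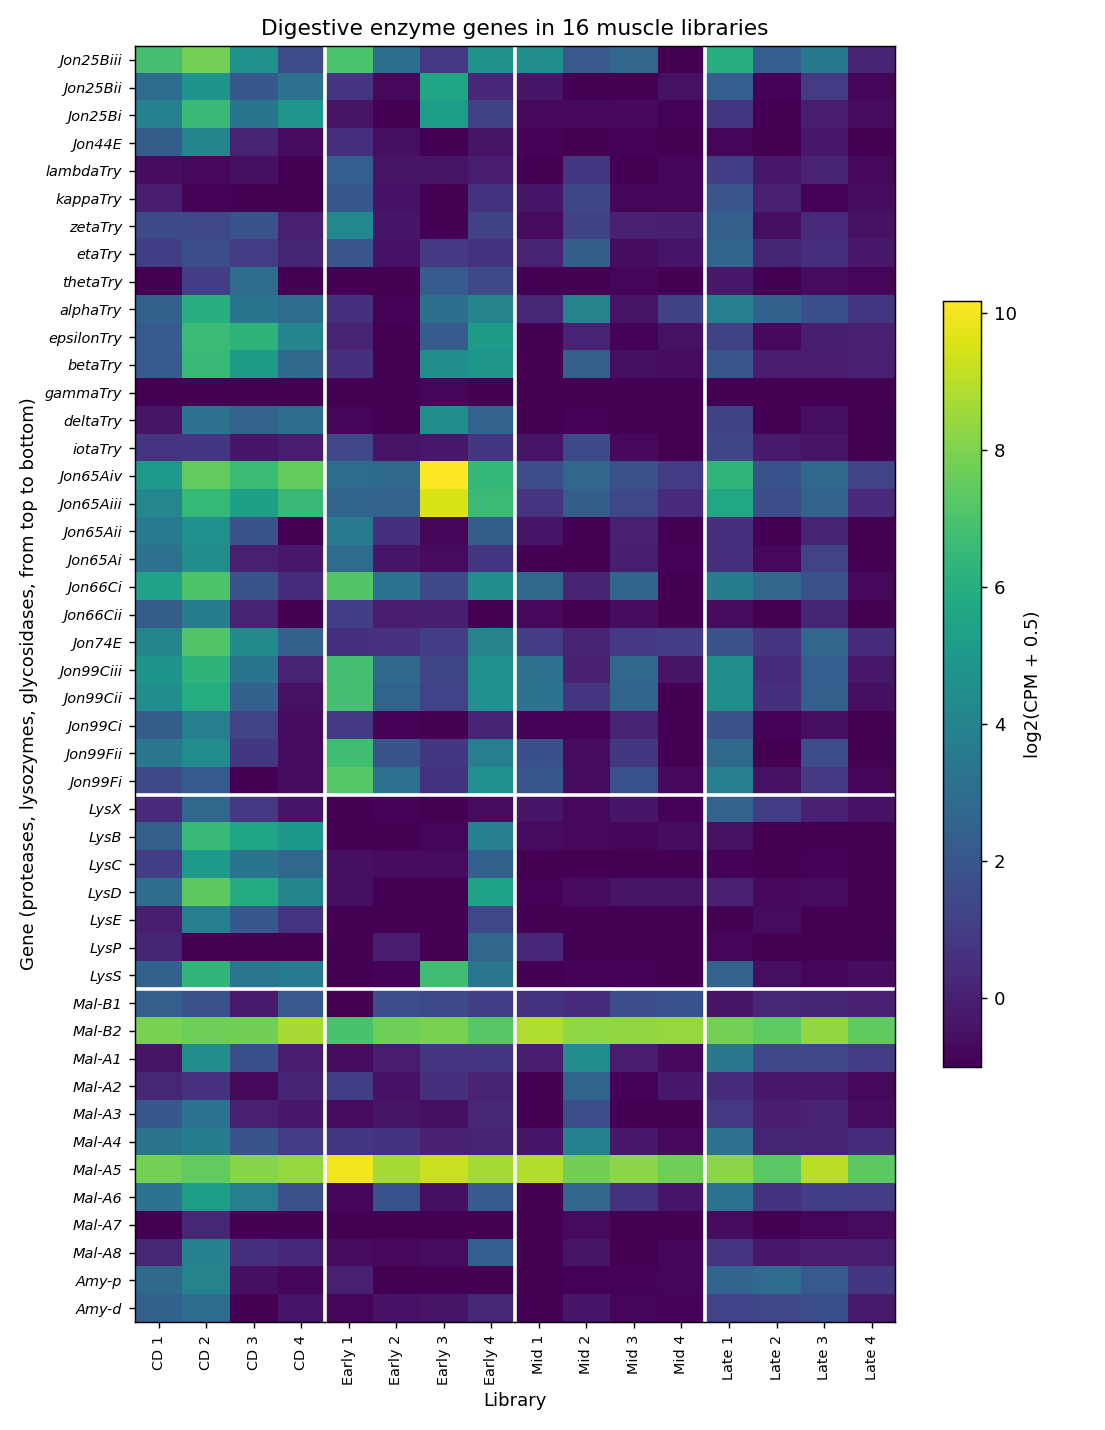
Level of each of the 46 genes (rows) in each of the 16 libraries (columns), as log2(CPM + 0.5); white lines separate conditions and enzyme classes. Mal-A5 and Mal-B2 are bright in every library, while most other genes are bright in a few libraries only, mainly CD 2, Early 1 and Early 3.

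The maltase genes Mal-A5 and Mal-B2 stood apart from the other members. They were the only members above 100 CPM in all 16 libraries, and together they took 60.9% of the 351209 counts on the 46 genes. That share went from 16.7% in CD 2 to 97.9% in Mid 4. Mal-A5 was at 226, 179, 278 and 338 CPM at CD and at 966, 407, 618 and 410 CPM at Early. It was at 463, 219, 298 and 206 CPM at Mid and at 301, 159, 510 and 164 CPM at Late. The Early libraries of Mal-A5 lay above all CD libraries (600 ± 263 against 255 ± 68.5 CPM, SD, n = 4), with a log2 fold change of 1.23 ± 0.40 (SE) and an adjusted p of 0.0697 (edgeR), so it was not called. Mal-B2 was at 240, 205, 219 and 415 CPM at CD, at 124, 206, 243 and 154 CPM at Early, at 457, 307, 313 and 332 CPM at Mid and at 224, 170, 324 and 173 CPM at Late. All Mid libraries of Mal-B2 were above all Early libraries (352 ± 70.5 against 182 ± 53.3 CPM, SD, n = 4), with a log2 difference of 0.95 ± 0.28 (SE) and an adjusted p of 0.0924. Within a condition the highest library of either gene was less than 4 times the lowest. Per kilobase of exon, Mal-A5 and Mal-B2 held the first 2 ranks among members at Mid and at Late, with 141 and 151 CPM per kb at Mid and 135 and 95.7 CPM per kb at Late. At CD the highest level per kilobase belonged to Jon65Aiv (136 CPM per kb), followed by LysD (128), Mal-A5 (121), Mal-B2 (116) and Jon25Biii (113).

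The other maltases and the amylases were low. Summed over these 10 glycosidases, the level was 39.6, 124, 21.5 and 10.4 CPM at CD, 3.81, 7.92, 5.69 and 13.9 CPM at Early, 1.81, 50.8, 4.66 and 3.99 CPM at Mid, and 39.3, 14.6, 13.0 and 6.62 CPM at Late. CD 2, Early 4, Mid 2 and Late 1 were thus the highest of their conditions. CD 2 and Late 1 were also the highest of their conditions for the proteases, and Early 4 and Mid 2 were not. Mal-A6 was the only one of the 10 with a condition mean over 10 CPM, with 8.90, 37.4, 13.4 and 2.92 CPM at CD, 0.0604, 2.98, 0.194 and 4.13 CPM at Early, 0, 5.94, 1.05 and 0.285 CPM at Mid and 9.14, 1.05, 1.59 and 1.45 CPM at Late. Mid 2 and Late 1 were also high for Mal-A1 (20.4 and 10.6 CPM) and Mal-A4 (14.6 and 8.42 CPM), and in both libraries the midgut sterol transporter gene Npc1b, which is not a member, reached 32.1 and 38.6 CPM, against 0.356 to 3.95 CPM in the other Mid and Late libraries. Npc1b was also at 24.6 CPM in Early 1, where Mal-A1 and Mal-A4 were at 0.121 and 1.21 CPM, and at 2.83 CPM in CD 2, the highest library of Mal-A1 (22.9 CPM). Mal-A2, Mal-A3, Mal-A7, Mal-A8 and Mal-B1 had condition means of 0 to 4.24 CPM.

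The amylase transcripts were low at Early and Mid and present at Late. Amy-p was at 6.78, 15.3, 0.193 and 0.0678 CPM at CD, and at 0.483, 0, 0 and 0 CPM at Early. It was at 0, 0.0425, 0.0376 and 0.0712 CPM at Mid and at 5.56, 6.98, 3.95 and 1.22 CPM at Late. The CD libraries therefore fell into a pair with several CPM and a pair close to 0, whereas all 4 Late libraries were above all Early and all Mid libraries. Amy-d had the same order of conditions, with means of 3.06, 0.298, 0.102 and 1.79 CPM at CD, Early, Mid and Late. Set against the proteases of the same library, the amylases amounted to 0.0534 to 3.21 CPM per 100 protease CPM at CD, 0.0126 to 0.380 at Early and 0 to 1.45 at Mid, and to 2.31 to 33.8 at Late.

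The proteases varied widely between libraries of the same condition. Their summed level was 361, 1406, 360 and 366 CPM at CD, 832, 57.6, 2055 and 434 CPM at Early, 61.0, 49.4, 37.5 and 7.37 CPM at Mid, and 322, 26.9, 56.8 and 8.19 CPM at Late. All Mid libraries were below all CD libraries, and at Late the single library Late 1 came close to the CD level. Jonah genes made up most of the sum (507 ± 423, 797 ± 853, 29.2 ± 23.8 and 89.6 ± 131 CPM, SD, n = 4, at CD, Early, Mid and Late), and trypsins the rest, with 19.0 to 270.3 CPM at CD and 1.43 to 32.2 CPM at Mid. Of the 46 members, 23 had their highest level in CD 2, 9 in Early 1 and 6 in Early 3.

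**Figure D2:**
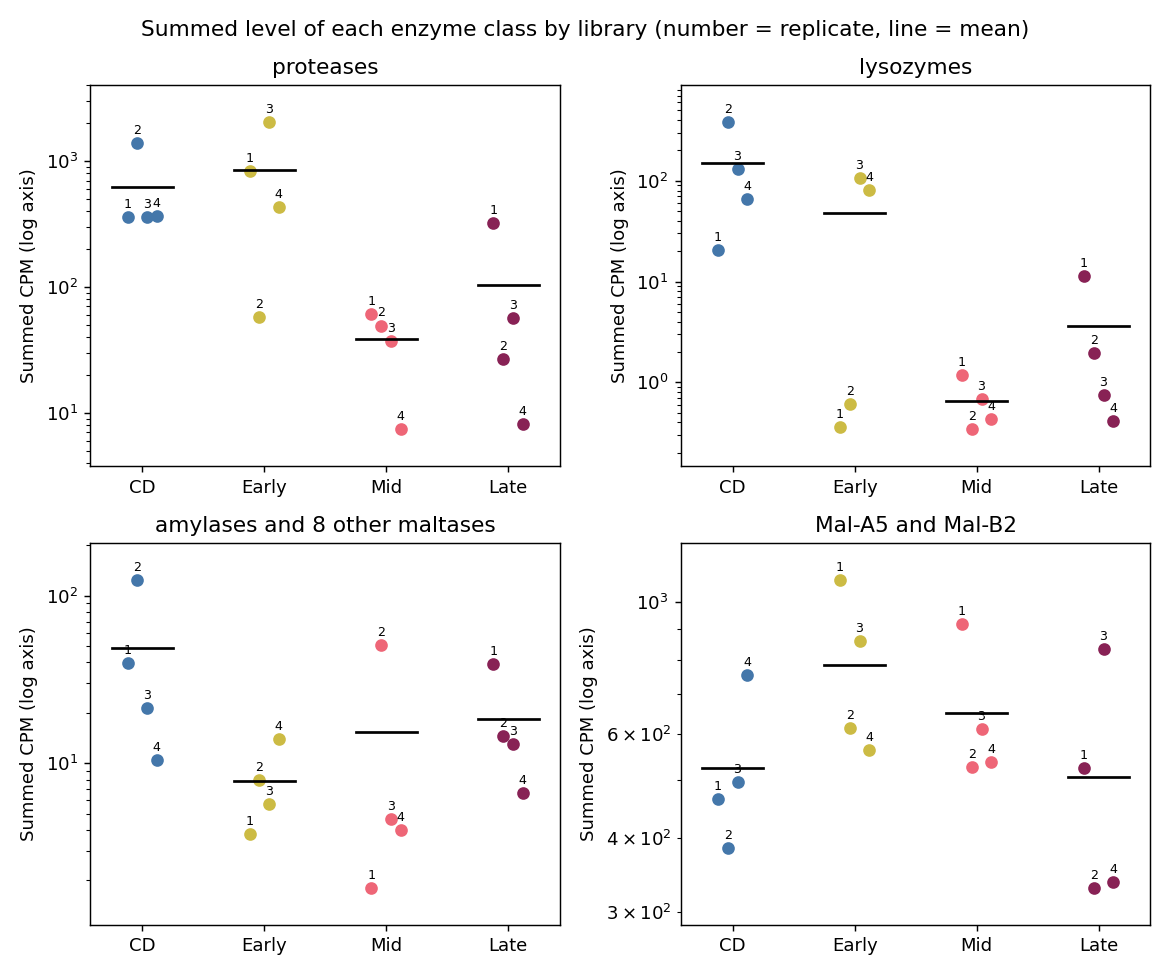
Summed CPM (log axis) of the proteases, the lysozymes, the 10 glycosidases other than Mal-A5 and Mal-B2, and Mal-A5 with Mal-B2, in 4 libraries of each condition; numbers give the replicate and lines the mean. The proteases span 57.6 to 2055 CPM within Early and the lysozymes lie between 0.340 and 1.19 CPM at Mid, while Mal-A5 and Mal-B2 keep to between 329 and 1090 CPM.

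The 3 libraries rich in proteases did not hold the same Jonah genes. Early 3 was dominated by Jon65Aiv and Jon65Aiii, a pair of neighbouring genes on arm 3L. Jon65Aiv was at 31.5, 176, 97.6 and 185 CPM at CD and at 7.31, 6.74, 1148 and 87.4 CPM at Early. It was at 2.73, 5.99, 2.86 and 1.46 CPM at Mid and at 80.1, 3.06, 6.44 and 1.96 CPM at Late. Early 3 and, within Late, Late 1 were far above the others. Jon65Aiii was at 17.8, 88.0, 40.7 and 93.7 CPM at CD, 5.80, 5.25, 746 and 97.3 CPM at Early, 1.15, 4.33, 2.18 and 0.783 CPM at Mid and 49.2, 2.60, 5.38 and 0.772 CPM at Late. The ratio of Jon65Aiii to Jon65Aiv lay between 0.394 and 1.11 in all 16 libraries. The next genes of that cluster, Jon65Aii and Jon65Ai, were nonetheless at 0.0646 and 0.129 CPM in Early 3, against 12.1 and 7.07 CPM in Early 1 and 23.5 and 21.9 CPM in CD 2.

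Jon25Bi and Jon25Bii, on arm 2L, were also high in Early 3. Jon25Bi was at 14.5, 92.3, 9.53 and 28.5 CPM at CD, 0.242, 0, 37.1 and 1.77 CPM at Early, 0.0882, 0.0849, 0.113 and 0.0356 CPM at Mid and 1.23, 0, 0.421 and 0.119 CPM at Late. Jon25Bii was at 7.13, 26.9, 3.76 and 8.68 CPM at CD, 1.09, 0.0875, 48.5 and 0.721 CPM at Early, 0.309, 0, 0 and 0.214 CPM at Mid and 4.55, 0.0329, 1.49 and 0.0594 CPM at Late. For Jon25Bi every Mid and Late library was below every CD library.

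Their neighbour Jon25Biii belonged to the genes that were high in Early 1 instead. It was at 117, 228, 26.1 and 2.64 CPM at CD, 127, 8.23, 1.29 and 26.4 CPM at Early, 23.1, 3.78, 6.02 and 0 CPM at Mid and 63.3, 4.58, 10.8 and 0.594 CPM at Late. Jon66Ci, on arm 3L, was at 42.6, 134, 3.08 and 0.881 CPM at CD, 144, 8.97, 2.33 and 21.7 CPM at Early, 6.04, 0.552, 5.79 and 0 CPM at Mid and 12.9, 5.99, 2.95 and 0.0890 CPM at Late. Both genes thus had CD 1, CD 2 and Early 1 as their 3 highest libraries, and both were low in Early 3 and in CD 4.

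Among the Jon99 genes, on arm 3R, Jon99Ciii and Jon99Cii had Early 1 and CD 2 on top. Jon99Ciii was at 26.6, 77.0, 9.73 and 0.542 CPM at CD, 114, 6.83, 2.004 and 23.8 CPM at Early, 8.51, 0.509, 6.06 and 0.249 CPM at Mid and 21.7, 0.823, 4.60 and 0.326 CPM at Late. Jon99Cii was at 21.4, 60.0, 4.82 and 0.203 CPM at CD, 116, 5.56, 1.87 and 24.6 CPM at Early, 8.91, 1.10, 5.79 and 0 CPM at Mid and 23.0, 0.955, 4.73 and 0.178 CPM at Late. These neighbours kept a ratio of 0.375 to 2.17 in 15 libraries, Mid 4 having no count of Jon99Cii.

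Jon99Fii and Jon99Fi, also neighbours, differed in their order between libraries. Jon99Fii was at 10.5, 20.6, 1.25 and 0.136 CPM at CD, 107, 3.24, 1.23 and 13.1 CPM at Early, 2.78, 0.127, 1.28 and 0 CPM at Mid and 6.29, 0, 2.59 and 0.0297 CPM at Late. Jon99Fi was at 2.53, 3.92, 0 and 0.136 CPM at CD, 151, 8.53, 1.03 and 23.7 CPM at Early, 3.53, 0.127, 2.97 and 0.107 CPM at Mid and 13.5, 0.198, 1.30 and 0.0594 CPM at Late. In CD 1 and CD 2 the ratio of Jon99Fi to Jon99Fii was 0.240 and 0.190, and in Early 1, Early 2 and Early 4 it was 1.41, 2.64 and 1.81. In CD 3 Jon99Fi had no count, in CD 4 the ratio was 1.00 from levels near 0, in Early 3 it was 0.842, and at Mid and Late it lay between 0.5 and 2.32 where Jon99Fii had a count. This ratio was singled out after its values were seen, and its difference between the diets was not tested.

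The ratio of Jon65Aiv to Jon25Biii set these genes against each other in each library. The pair was picked after its values were seen, so the contrast of Early 3 with Early 1 is no separate result. The ratio was 0.268, 0.773, 3.74 and 70.1 at CD and 0.0575, 0.819, 888 and 3.32 at Early. At Mid it was 0.118, 1.58 and 0.475, with no count of Jon25Biii in Mid 4, and at Late it was 1.27, 0.669, 0.596 and 3.30. CD 4 and Early 3 stood on the side of Jon65Aiv, and CD 1, Early 1 and Mid 1 on the side of Jon25Biii. The other libraries with a ratio lay in between. Most of the range was therefore within CD and within Early and not between conditions.

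**Figure D3:**
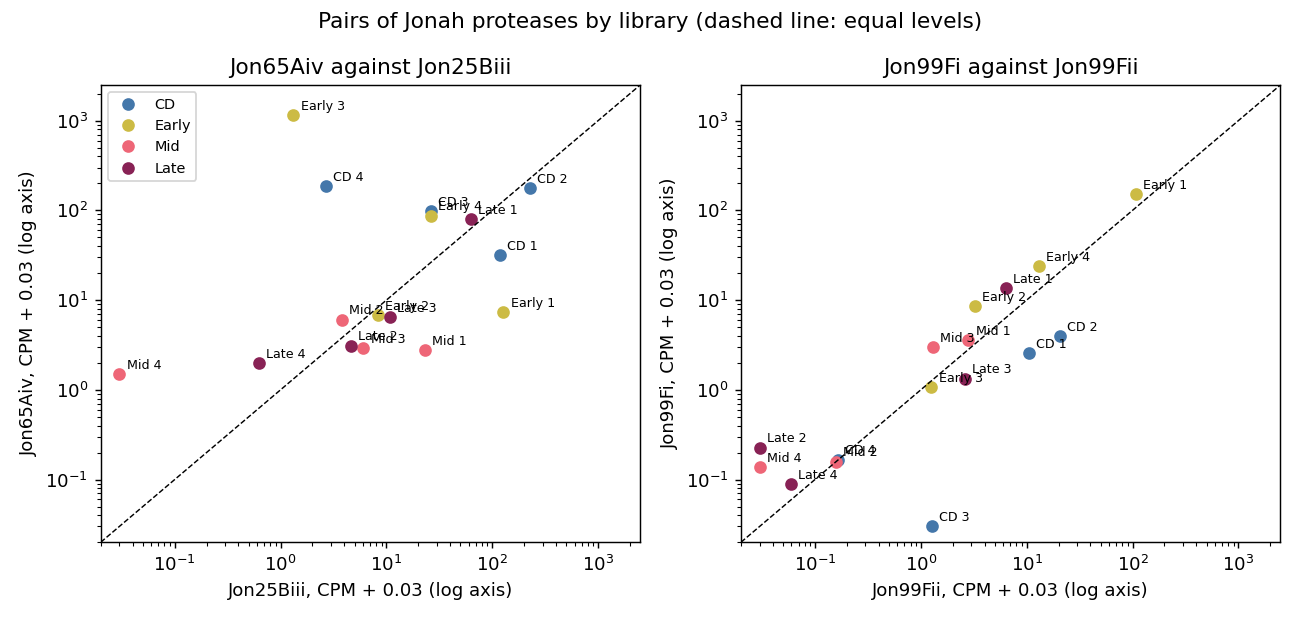
Level of Jon65Aiv against Jon25Biii (left) and of Jon99Fi against Jon99Fii (right) in the 16 libraries, as CPM + 0.03 on log axes; dashed lines mark equal levels and colours the condition. Early 3 (ratio 888) and CD 4 (70.1) lie far above the line on the left and Early 1 (0.0575) below it, and on the right CD 1 and CD 2 lie below the line (0.240 and 0.190).

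Jon74E and Jon44E had their highest level in CD 2. Jon74E, on arm 3L, was at 16.3, 141, 19.1 and 4.88 CPM at CD, 0.967, 1.01, 1.55 and 15.2 CPM at Early, 1.54, 0.552, 1.32 and 1.53 CPM at Mid and 2.93, 1.15, 5.89 and 0.890 CPM at Late. Jon44E was at 4.40, 16.5, 0.578 and 0.136 CPM at CD, 0.967, 0.175, 0 and 0.262 CPM at Early, 0.0441, 0, 0.0376 and 0 CPM at Mid and 0.0723, 0, 0.356 and 0 CPM at Late. Jon65Ai, Jon65Aii, Jon66Cii and Jon99Ci had condition means of 4.45 to 9.61 CPM at CD and of 0.0597 to 0.188 CPM at Mid.

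Among the trypsins, which lie in a cluster on arm 2R, alphaTry, betaTry and epsilonTry had the highest means at CD. The gene epsilonTry was at 4.05, 97.3, 77.2 and 16.5 CPM at CD, 0.544, 0, 4.27 and 34.4 CPM at Early, 0, 0.594, 0.0376 and 0.214 CPM at Mid and 1.73, 0.0988, 0.453 and 0.504 CPM at Late. The gene betaTry was at 4.10, 92.0, 33.6 and 6.58 CPM at CD, 0.906, 0, 21.6 and 29.4 CPM at Early, 0, 4.71, 0.188 and 0.142 CPM at Mid and 3.47, 0.428, 0.421 and 0.475 CPM at Late. Both were lower in all Late libraries than in any CD library. By contrast alphaTry, at 5.06, 64.5, 9.53 and 7.39 CPM at CD and 0.906, 0.0438, 8.15 and 15.7 CPM at Early, reached 15.2 CPM in Mid 2 and 13.0 CPM in Late 1, with 0.662, 0.263 and 1.71 CPM in the other Mid libraries and 4.84, 2.78 and 1.22 CPM in the other Late libraries.

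The remaining trypsins were under 10 CPM on average in every condition. deltaTry was highest in Early 3 (23.4 CPM), like Jon65Aiv, and had 1 count in the 4 Mid libraries. lambdaTry, kappaTry and zetaTry were highest in Early 1 (4.59, 3.56 and 18.2 CPM). At CD, lambdaTry and kappaTry had means of 0.110 and 0.113 CPM. The means of etaTry and iotaTry lay between 1.37 and 1.94 CPM and between 0.657 and 0.970 CPM over the 4 conditions, and thetaTry was at 0 in 8 of the 16 libraries.

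The midgut lysozymes LysB, LysC, LysD and LysE had their highest levels at CD and in Early 4, and 14 counts or fewer in each of the other HSD libraries. LysB was at 4.65, 90.8, 47.9 and 30.5 CPM at CD, 0, 0, 0.0646 and 13.7 CPM at Early, 0.132, 0.0849, 0.0752 and 0.142 CPM at Mid and 0.217, 0, 0 and 0 CPM at Late. LysD was at 7.44, 165, 57.4 and 16.2 CPM at CD, 0.181, 0, 0 and 44.3 CPM at Early, 0.0441, 0.127, 0.263 and 0.249 CPM at Mid and 0.506, 0.0988, 0.130 and 0 CPM at Late. In both genes Early 4 lay within the CD range, while the other 11 HSD libraries were below every CD library.

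LysC and LysE followed at lower levels. LysC was at 1.62, 31.8, 9.63 and 6.31 CPM at CD, 0.181, 0.131, 0.129 and 4.98 CPM at Early, 0 in all 4 Mid libraries and 0.0361, 0, 0.0324 and 0 CPM at Late. LysE was at 0.455, 13.4, 3.66 and 1.08 CPM at CD and at 0, 0, 0 and 2.10 CPM at Early, and its 4 counts in the later stages were all in Late 2. Early 1, with 832 CPM of proteases, had 0.363 CPM of LysB to LysE together, and Early 3, with 2055 CPM of proteases, had 0.194 CPM. Per 100 protease CPM, LysB to LysE amounted to 3.93 to 32.9 CPM in the CD libraries and to 14.98 CPM in Early 4, but to 0.00944 to 0.228 CPM in the other Early libraries.

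LysS and LysX did not share this pattern. LysS was at 5.01, 77.5, 9.92 and 11.3 CPM at CD, 0, 0.0438, 107 and 9.90 CPM at Early, 0, 0.0425, 0.0376 and 0 CPM at Mid and 5.20, 0.165, 0.0648 and 0.148 CPM at Late. Its highest library was Early 3, the library rich in Jon65Aiv, in which LysB to LysE were near 0. LysX was at 0.809, 6.13, 1.35 and 0.271 CPM at CD, 0, 0.0438, 0 and 0.131 CPM at Early, 0.309, 0.0849, 0.301 and 0.0356 CPM at Mid and 5.35, 1.55, 0.518 and 0.237 CPM at Late. Early was thus its lowest stage, and the Late libraries overlapped those at CD. LysP, the adult salivary gland lysozyme, had 90 of its 130 counts in Early 4 (5.90 CPM).

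**Figure D4:**
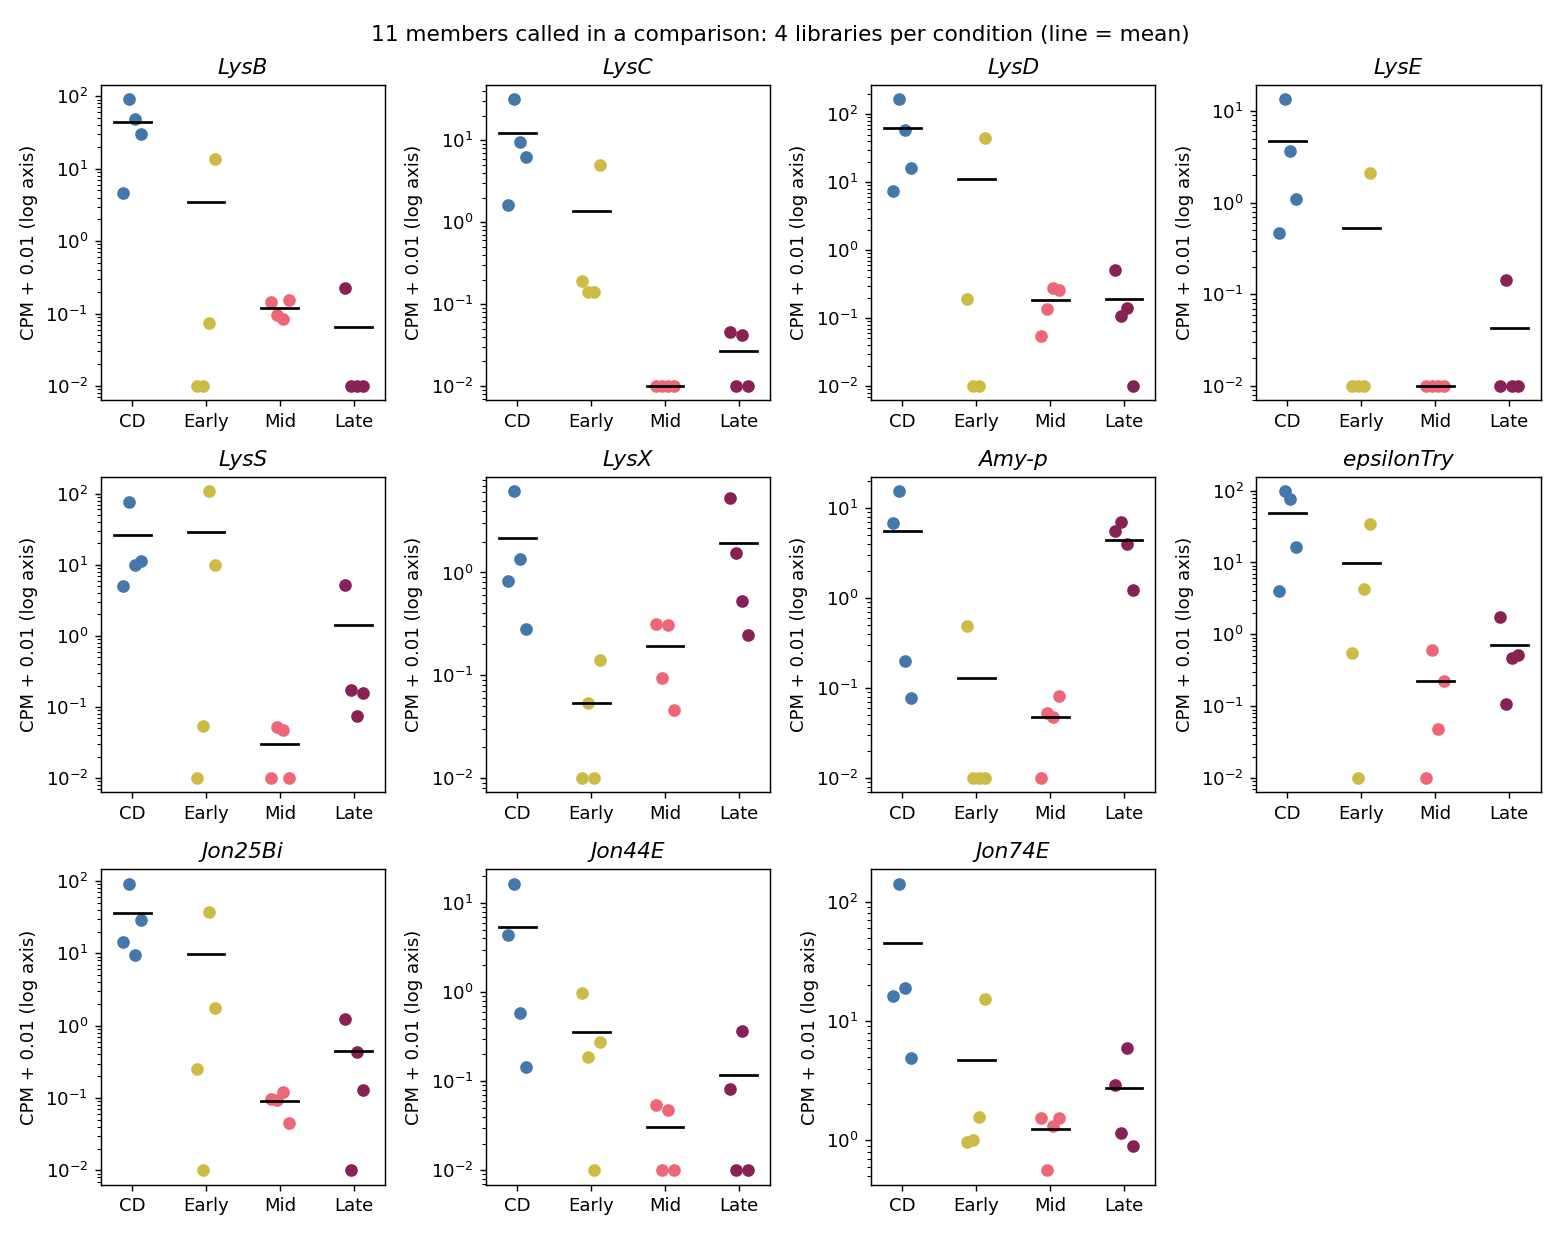
Level (CPM + 0.01, log axis) of the 11 members called in at least 1 comparison, with 4 libraries per condition and a line at the mean. For LysB, LysC, LysD and LysE the CD libraries and Early 4 stand above the rest, LysX is lowest at Early, and all 4 Late libraries of Amy-p (1.22 to 6.98 CPM) are above those at Early and Mid.

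Differences between conditions were tested with edgeR's quasi-likelihood test over 11607 genes, at an adjusted p of 0.05. At Early against CD, 1 of 43 members was lower and 0 higher, where 2.7% of all genes tested were called lower and 6.44% higher. This was LysX, with 3 counts in the Early libraries together against 164 at CD, a ratio of CD to Early of 58.0 (95% exact counting interval 19.5 to 284, which does not cover the spread between libraries) and an adjusted p of 0.0291. At an unadjusted p under 0.05 there were 10 members, and 2785 of the 11607 genes tested, a similar share. The median log2 fold change was -1.20 over the members and -0.01 over all genes, and 28 of 43 members were below 0. The members that did not pass ran from -5.49 ± 1.69 (SE, Amy-p, adjusted p 0.0552) to 4.75 ± 1.85 (Jon99Fi, 0.124). The call of LysX was lost without CD 2, CD 3, Early 1, Early 2 or Early 3, and the number of calls was 0 without CD 2, CD 3 or Early 2, 2 without CD 4 and 5 without Early 4.

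At Mid against CD, 9 of 43 members fell and 0 rose, where 1.95% of all genes tested were called lower, 4.37% higher and 6.32% in either direction. They were 4 lysozymes (LysB, LysC, LysD and LysS), the proteases Jon25Bi, Jon44E, Jon74E and epsilonTry, and the amylase Amy-p. LysC was at least 415-fold lower, set against a floor of 3 counts over the 4 Mid libraries (adjusted p 0.0139). LysB fell by 8.57 ± 1.98 on the log2 scale (SE, adjusted p 0.0238), Jon25Bi by 8.73 ± 2.02 (0.0241) and LysD by 8.41 ± 2.14 (0.0333). Each of these 4 genes was lower in all Mid libraries than in any CD library.

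The other calls at Mid were epsilonTry, which fell by 7.82 ± 1.86 on the log2 scale (SE, adjusted p 0.0255), Amy-p, which fell by 6.99 ± 1.81 (0.0357), and Jon74E, which fell by 5.19 ± 1.22 (0.0251). Amy-p overlapped between the conditions, with 0.0678 CPM in CD 4 and 0.0712 CPM in Mid 4. Its CD level came mostly from CD 1 and CD 2 (6.78 and 15.3 CPM). LysS had 2 counts at Mid against 2011 at CD (ratio of CD to Mid 1535, 95% counting interval 424 to 12683, adjusted p 0.0434) and Jon44E 2 against 445 (ratio 340, interval 93.5 to 2813, adjusted p 0.0338). LysE, with 0 counts at Mid and thus at least 157-fold lower than at CD, missed the threshold (adjusted p 0.0542). The median log2 fold change was -4.76 over the members and -0.06 over all genes, and 38 of 43 members were below 0. Left out 1 at a time, the libraries gave 1 call without CD 2, Mid 1, Mid 3 or Mid 4, 3 without CD 3 and 14 without Early 3. LysC kept its call in all 16 of these fits and each of the other 8 lost it in 4 to 7 of them. Without CD 2 and Early 3 together, Jon25Bi and LysC were still called.

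At Late against CD, 8 of 43 members fell and 0 rose, where 7.7% of all genes tested were called lower and 14.0% higher. The log2 fold change was -9.60 ± 2.09 for LysB (SE, adjusted p 0.00502), -8.40 ± 2.12 for LysD (0.0114) and -6.93 ± 2.28 for LysE (0.0491). LysC had 2 counts at Late against 900 at CD (ratio of CD to Late 835, 95% counting interval 230 to 6904, adjusted p 0.00457). The proteases Jon25Bi, epsilonTry, Jon44E and Jon74E fell too, with log2 fold changes of -6.36 ± 1.74, -6.13 ± 1.67, -5.59 ± 1.74 and -4.06 ± 1.15 (SE, adjusted p 0.0171, 0.0168, 0.0333 and 0.0204). For Jon44E and Jon74E, Late 3 (0.356 and 5.89 CPM) was above CD 4 (0.136 and 4.88 CPM), so their libraries overlapped. Without CD 2, Jon25Bi, Jon44E and Jon74E lost the call and epsilonTry kept it.

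Of the calls at Mid and Late, 7 were shared (77.8% of those at Mid and 87.5% of those at Late), but both comparisons use the same CD libraries. Neither amylase was called at Late: Amy-p was at -0.34 ± 1.35 and Amy-d at -0.78 ± 1.25 (log2 fold change ± SE, adjusted p 0.87 and 0.667). The median log2 fold change at Late was -2.42 over the members and -0.08 over all genes, and again 38 of 43 members were below 0. LysB, LysC and LysD kept their calls with each of the 16 libraries left out in turn. There were 4 calls without CD 2, 3 without Late 2 and 5 without Late 3, and LysE was called in 5 of the 16 fits. Without CD 2 and Early 3 together, the calls were Jon25Bi, LysB, LysC and LysD.

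**Figure D5:**
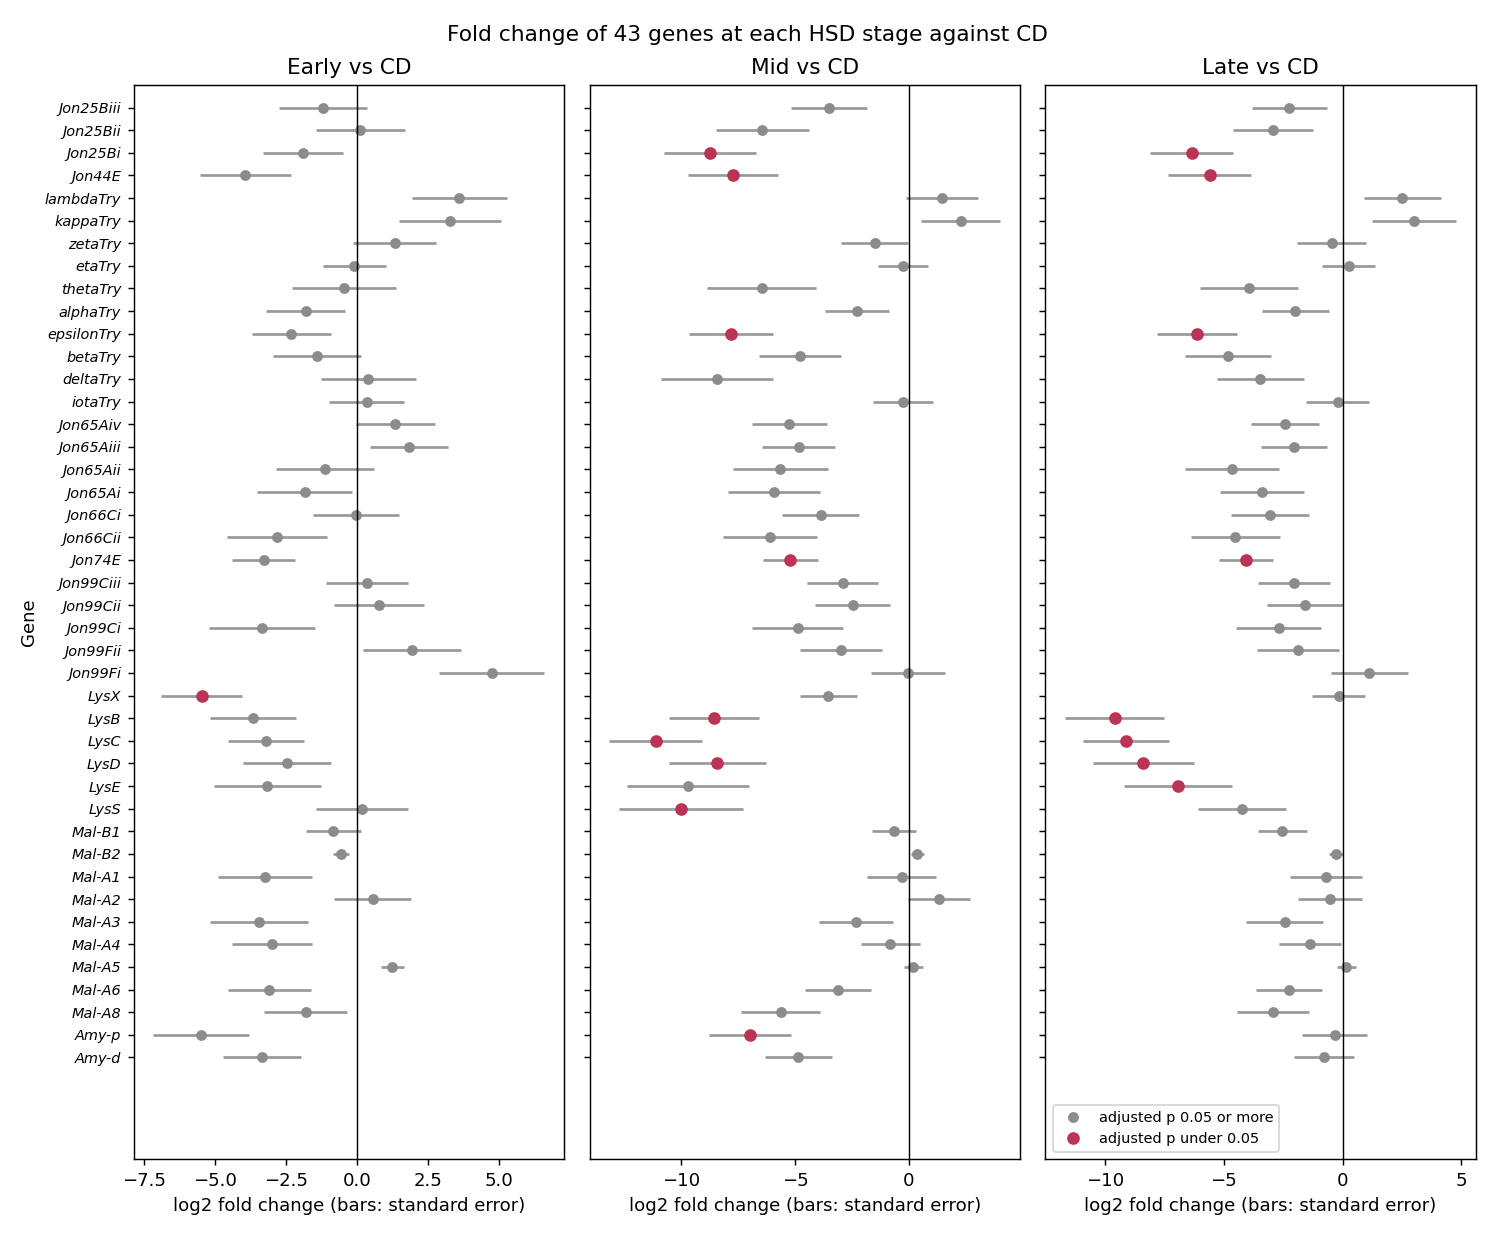
Log2 fold change (points) with its standard error (bars) of the 43 members tested, at Early, Mid and Late against CD; red points have an adjusted p under 0.05 (1, 9 and 8 members). At Mid and Late 38 of the 43 points lie below 0, with LysB, LysC, LysD, Jon25Bi, epsilonTry, Jon44E and Jon74E called in both, while Mal-A5 and Mal-B2 lie close to 0 with short bars.

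Between the HSD stages, Late differed from Early in 5 members, with 2 of 43 higher and 3 lower, where 10.1% of all genes tested were called higher, 10.1% lower and 20.2% in either direction. LysX rose from 3 counts at Early to 219 at Late (ratio 41.7, 95% counting interval 14.1 to 204, adjusted p 0.0158), and Amy-p rose by 5.15 ± 1.66 on the log2 scale (SE, adjusted p 0.0408). In both genes every Late library was above every Early library. LysB and LysD were called lower at Late (log2 fold change -5.93 ± 1.91 and -5.93 ± 1.96, adjusted p 0.0404 and 0.0454), but without Early 4 these values were 1.25 and 1.63 and not called. LysB lost this call in 9 and LysD in 11 of the 16 fits with 1 library left out, including those without any 1 of the Late libraries. LysC, with 84 counts at Early of which 76 were in Early 4, and 2 at Late, was called lower too (ratio of Early to Late 73.4, interval 19.7 to 616, adjusted p 0.0238) and lost the call without Early 4 or without any 1 of the Late libraries.

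The number of members called between Late and Early was 1 without Early 4 or Late 2, 2 without Mid 2, Late 3 or Late 4 and 3 without CD 2, Mid 3 or Mid 4. Without Late 1, none of the 5 members called with all libraries (Amy-p, LysB, LysC, LysD and LysX) was called and 4 others were called lower (LysS, Jon65Aiii, Jon65Aiv and Jon99Fi). Of the 16 fits with 1 library left out, LysX lost its call in that one. Amy-p lost its call without CD 1, Early 2, Early 3, Early 4, Mid 2, Late 1, Late 2 or Late 3, 8 of the 16 libraries.

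No member was called between Mid and Early or between Late and Mid by edgeR, where 2.09% and 0.19% of all genes tested were called in either direction and 1.82% and 0.0431% lower. Between Mid and Early, 21 members had an unadjusted p under 0.05, as had 2070 of the 11607 genes tested, and DESeq2 called 11 members. The smallest adjusted p was that of LysC (0.0577), which had 84 counts at Early and none at Mid, at least 45.6-fold lower, followed by Jon65Aiii (-6.66 ± 1.73 on the log2 scale, 0.0612). With Early 2 left out there were 6 calls, and with Early 3 left out 2. Between Late and Mid, 6 members had an unadjusted p under 0.05, as had 1489 of the 11607 genes tested, a similar share. DESeq2 called Amy-p and Amy-d (edgeR log2 fold change 6.65 ± 1.79 and 4.07 ± 1.44, adjusted p 0.102 and 0.22). The share of all genes that DESeq2 called is not given here.

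Counts of libraries gave a similar order. At Mid 14 members had all libraries below all CD libraries (background 6.27% of genes tested): LysB to LysE, LysS, Jon25Bi, Jon25Bii, Jon44E, Jon65Aiii, Jon65Aiv, Jon74E, deltaTry, epsilonTry and Mal-A8. At Late there were 7 (background 8.99%): LysB to LysE, Jon25Bi, betaTry and epsilonTry. At Early, LysX and Mal-A4 lay below CD (background 5.38%), and lambdaTry and Mal-A5 above it (background 9.16%), so that the share of members was near or under that of all genes. From Early to Mid, 1 member (Mal-B2) was higher in all libraries and 3 (Jon65Aiii, Jon65Aiv and LysC) lower (background 4.26% and 6.72%). Between the later stages, Amy-p, Amy-d, LysS and Mal-A8 were higher in all Late than in all Mid libraries, and Mal-B1 lower (background 4.44% and 3.76%).

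Genes of the sugar response that lie upstream of amylases and maltases in the fly midgut were read in the same libraries. Of 7 such genes, 2 rose at Early, 2 at Mid and 3 at Late against CD, and 0 fell. Of all genes tested, 6.44%, 4.37% and 14.0% were called higher in these comparisons. The gene sug, which encodes Sugarbabe, was at 1.52, 1.32, 0.482 and 1.76 CPM at CD and rose by 2.25 at Early, 3.17 at Mid and 4.04 at Late on the log2 scale (adjusted p 0.00967, 0.00667 and 0.00021), to 29.3, 19.0, 26.3 and 10.3 CPM at Late. The gene daw, which encodes Dawdle, was at 28.7, 29.2, 22.4 and 26.4 CPM at CD and rose by 0.96, 1.64 and 2.68, to 137, 250, 158 and 140 CPM at Late. Both were highest on average at Late. Which cells of the dissected tissue these transcripts came from is not known, and a link to the amylases was not tested. The receptor gene put was the other gene that rose at Late, by 0.80 (adjusted p 0.00712).

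Other genes known from the gut were also read, in a list of 22 of which 15 passed the filter. At Early and at Mid 0 rose and 2 fell, tobi (an alpha-glucosidase gene) and PGRP-SC2 (a peptidoglycan recognition protein gene), and at Late 0 changed. The midgut transcription factor genes GATAe and lab stayed between 0 and 1.65 CPM and Ser12 was at 0 in all libraries. Without Gal, whose level of 47.6 to 285 CPM made up most of it in many libraries, the list summed to 90.03 to 202 CPM at CD, 30.2 to 459 CPM at Early, 17.5 to 89.96 CPM at Mid and 29.6 to 159 CPM at Late. The serine protease gene yip7 supplied 428 CPM in Early 3, the library of Jon65Aiv, against 0.0712 to 61.8 CPM in the other 15. The salivary gland list summed to between 25.2 and 88.9 CPM at CD, to 0.665, 1362, 0.970 and 219.8 CPM at Early, to between 0.427 and 79.5 CPM at Mid and to between 0.615 and 4.59 CPM at Late. Of its 6 genes tested, 1 rose at Early against CD. At Late, 3 fell against CD (median log2 fold change -5.38) and 6 fell against Early (-8.02). A list of 5 Malpighian tubule genes summed to between 42.4 and 86.5 CPM at CD, 8.53 and 55.1 CPM at Early, 20.6 and 30.1 CPM at Mid and 26.6 and 57.5 CPM at Late, with 0 of 5 called in any comparison. The muscle list moved with the stages as well: 8 of its 15 genes rose at Early and 9 fell at Late against CD, and all 15 fell from Early to Late. Of all genes tested, 6.44% were called higher at Early against CD. Against CD, 2.7%, 1.95% and 7.7% were called lower at Early, Mid and Late, and 10.1% were lower at Late against Early. The part of tissue composition in the members' values was not tested.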

How the data were processed

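Body-wall muscle RNA of 16 libraries was analysed from raw counts per gene, which the authors deposited without normalization after trimming, alignment to dm3 with TopHat2 2.0.11 and counting with featureCounts. The kit was stranded, but the strand and multi-mapping settings and the annotation release are not given in the sources used here. Groups came from the labels. Members and lists were chosen with earlier results of these data known. Symbols, exon lengths and overlaps were taken from Ensembl gene models on dm6, a later build, and no coordinates are given. In edgeR 4.0.16 (R 4.3.3), genes were filtered with filterByExpr (minimum count 10, minimum total 15), scaled by TMM and fitted in 1 quasi-likelihood model over 4 conditions. P-values were adjusted by Benjamini-Hochberg over the 11607 genes tested. CPM used TMM-scaled library sizes. Standard errors are the fold change over the root of F. For groups at 0, folds were bounded with a floor of 3 counts over the group, and for 1 to 3 counts an exact 95% interval of the count ratio was given. Intervals and floors cover counting error only, and with libraries of 9666672 to 28698585 counts the spread between libraries was the larger error. Values by library are given for members with a mean of at least 10 CPM in a condition or called in a comparison. Other members are given by ranges. For the other lists, the plan was to name up to 4 of the most abundant genes a list. More were named from the gut list, some of them at or near 0. Steps were tested on simulated data. Alternatives were a filter at a mean of 10 CPM, no filter, DESeq2 size factors, upper-quartile scaling, the DESeq2 1.42.0 Wald test, a replicate block, the 8 libraries of a comparison alone and each library left out. Promoter and protein sequences were not analysed here.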

Additional observations from a re-analysis of the deposited data

Results flagged for a closer look

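A check for a library far from the other 3 of its condition, on log2(CPM + 0.5), flagged 14 of 112 groups of 4, where chance flags about 1 in 20. Early 4 stood apart for LysB (13.7 CPM), LysC (4.98 CPM), LysD (44.3 CPM), LysE (2.10 CPM) and Jon74E (15.2 CPM), genes that were near 0 or, for Jon74E, at 0.967 to 1.55 CPM in the other Early libraries. Late 1 stood apart for betaTry (3.47 CPM), LysS (5.20 CPM), Mal-A6 (9.14 CPM) and LysB (0.217 CPM). Mid 2 stood apart for betaTry (4.71 CPM), Late 2 for LysE (0.132 CPM) and Early 1 for Amy-p (0.483 CPM), where the other 3 libraries of the gene's condition were at or near 0. CD 2 stood apart in the sum of the proteases (1406 CPM against 366 CPM in the next CD library) and CD 4 in the sum of the glycosidases (763 against 518 CPM), which Mal-A5 and Mal-B2 made up.

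The change from CD differed between Late and Early in 5 of 43 members, by the edgeR test of Late against Early in which CD cancels out. That test called 20.2% of all genes tested, a larger share. The difference in log2 fold change, Late minus Early, was 5.30 for LysX and 5.15 for Amy-p, and it was -5.93 for LysB, -5.93 for LysC and -5.93 for LysD. The fitted values of LysX and LysC rest on 3 counts at Early and 2 at Late and depend on how the fit treats such counts. Without Early 4 the values of LysB and LysD were 1.25 and 1.63, and LysB, LysC and LysD were not called.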

How the results depend on the processing

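The number of members called depended on the test and on single libraries. With DESeq2's Wald test it was 6 at Early, 22 at Mid and 12 at Late against CD, 11 for Mid against Early, 10 for Late against Early and 2 for Late against Mid, in place of 1, 9, 8, 0, 5 and 0. Shares of all genes called under the alternatives are not given here, so these counts are not read as a result about the members. A minimum mean of 10 CPM gave 0 at Early and 5 for Mid against Early, upper-quartile scaling 2 and 1, and the 8 libraries of a comparison alone 0 at Early and 1 for Late against Early. With CD 2 and Early 3 left out together, chosen after seeing the data, it was 0, 2 and 4 at Early, Mid and Late against CD and 2 for Mid against Early. Leaving out 1 library gave 0 to 5, 1 to 14, 3 to 9, 0 to 6, 1 to 7 and 0 to 0 calls in the same order of comparisons. For Late against Early, the log2 fold change went from -9.24 (without Late 1) to 1.25 (without Early 4) for LysB and from -7.12 to 1.63 (without the same libraries) for LysD, in a comparison in which 209 of the 210 Early counts of LysB were in Early 4. The cause of the other shifts was not tested. Among the values of called members under the alternatives, 402 kept direction and side of the threshold, 130 only the direction and 2 neither, and the 36 class sums under other scalings moved by less than 1 SD.

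Libraries that shared a replicate number were on average not clearly more alike than other pairs. The mean correlation of deviations from the condition means was 0.00484 over 24 pairs (from -0.747 to 0.676), against -0.00193 over 72 other pairs. Such a mean showed no pairing by number, but it cannot exclude pairing of some libraries. With the replicate number as a block, the calls were 0, 3 and 5 at Early, Mid and Late against CD and 2 for Late against Early, and 0 in both other comparisons. The planned description of promoter and protein sequences was not run.

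Precision was limited by the spread between 4 libraries and by low counts: 3 members failed the filter and 5 of 11 called members held 3 counts or fewer in a condition.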
